A study of Arabidopsis thaliana with 42 samples.

Results

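The genes described here are 149 probe sets that stood high in the acs2B and acs6E lines and low in the acs2C and acs9B lines of a collection of Arabidopsis thaliana mutants. A probe set is the group of short probes on an Affymetrix array that measures 1 transcript. Members were chosen by a difference of group means: the mean of the acs2B and acs6E means minus the mean of the acs2C and acs9B means had to be 1 or more on the log2 scale, which is a doubling or more. Of 22746 probe sets 152 met this threshold, and 3 of them were left out by name, HYH at 2.22, UGT78D2 at 1.30 and UGT76E11 at 1.096. Because measured values of those 4 lines chose the members, all values in these lines are a description, with no test. The tests concern the other lines.

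The study measured RNA of seedlings carrying mutations in the ACC synthase (ACS) family on 42 arrays, with 3 arrays, called biological replicates in their titles, in each of 14 groups. The single set held Col controls, the 4 lines of the rule and the lines acs1A, acs4A, acs5C and acs5D, all of which the titles call single mutants. The higher order set held other Col controls and the lines penta, hexa, hepta and miR. The titles do not say which genes are mutated in penta, hexa and hepta or what miR acts on, and the kind of allele in each line is not given in the sources used here. All seedlings were 10 days old, were grown in the light on an MS medium with sucrose after 2 days at 4 C, and were kept at 25 C with 16 hours of light a day. In whole seedlings, fewer cells of a type and less RNA per cell cannot be told apart.

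ACC synthases make 1-aminocyclopropane-1-carboxylate (ACC), the precursor of the gas ethylene, and this step usually limits how much ethylene a plant makes. The family has several members that act as pairs of subunits, and ethylene formed through them restrains cell elongation and shapes growth, defence and ageing. The comparisons described here ask how a group of genes that separates some single mutants behaves in the remaining mutants of the family.

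The annotation named a single gene for 67 of the 149 probe sets, which stand for 66 genes, since AT5G54130 had 2 probe sets. Another 2 probe sets matched several genes and 80 are unnamed here and are given by their identifiers. Only 8 probe sets carried a symbol other than a locus code. These were TBL26, ATSPS4F, AFR, IAGLU, TRY, Hop3, LPR1 and CHIL. The 66 genes lay on all 5 chromosomes, with 21 on chromosome 5, which is 31.8% of them against 22.6% of all named genes with a probe set. None of these 66 genes lay within 3 genes of another. The probe sets that were unnamed or matched several genes were not placed, so their neighbours are not known here. Members were bright, with a median level of 7.94 over the single set against 6.801 for all probe sets.

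Several arrays stood apart from others of their group. Replicate 1 of acs4A was lower than replicates 2 and 3 in 147 of the 149 members, and results with acs4A are given with and without it. Transcripts of the control probe sets also moved with the groups. The 6 thr probe sets, designed for an RNA that can be added to the sample, averaged 6.51 to 6.68 on the Col arrays of the single set and 7.08 to 8.14 on its lines. The 4 bioC probe sets, designed for an RNA added at hybridisation, averaged 7.07 to 7.50 in acs1A, acs2C, acs4A, acs5C and replicates 1 and 3 of acs2B, and 8.95 to 9.30 in acs5D, acs6E, acs9B and replicate 2 of acs2B. Of 45 probe sets for control transcripts of bacteria and phage, 33 to 36 were called against Col in acs1A, acs4A, acs5C and acs5D. The part of this difference in the comparisons of these lines with Col was not tested. Of the marker genes of leaf and root, 1 of 8 and 2 of 7 had a named probe set. RCA of leaves read 14.1 to 14.3 on the arrays of the single set and 13.7 to 13.9 on the others, and neither it nor the root genes PYK10 and EXPA7 was called against Col in any line tested.

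The mean level of the 149 members placed the 4 lines of the rule at the ends of the single set. The mean was 8.50 ± 0.04 (SD, n = 3) in acs2B and 8.67 ± 0.08 in acs6E, against 7.16 ± 0.01 in acs2C and 7.08 ± 0.11 in acs9B. Col lay between them at 7.94 ± 0.24, and acs1A at 7.75 ± 0.05, acs5C at 8.02 ± 0.11 and acs5D at 7.78 ± 0.11 lay within the range of the Col arrays, 7.67 to 8.12. The 3 arrays of acs4A gave 6.91, 8.01 and 8.11, so replicate 1 lay below every other array of the set and the other replicates lay with Col. In the higher order set the mean was 8.03 ± 0.03 in Col, 7.74 ± 0.04 in penta, 7.57 ± 0.001 in hexa, 7.46 ± 0.10 in hepta and 7.45 ± 0.13 in miR. Col stood above every mutant array there, penta above hexa, and hexa above hepta, while hepta and miR did not differ beyond their spread. Levels are read only within a set, since the arrays of each seem to have been normalized on their own.

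**Figure D1:**
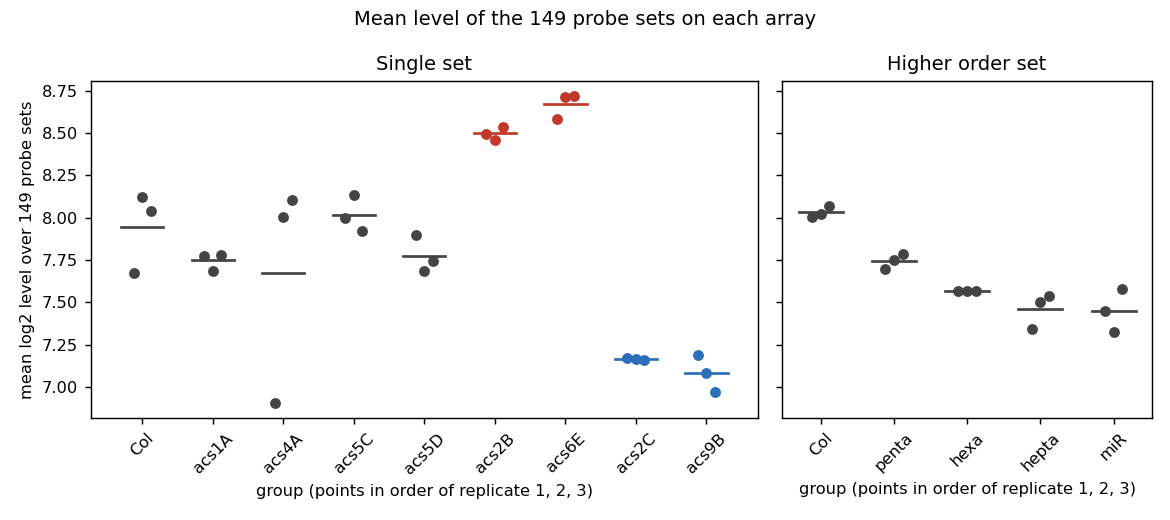
Mean log2 level of the 149 members on each array, by group, in the single set (left) and the higher order set (right). Points are arrays, lines are group means, red marks acs2B and acs6E and blue marks acs2C and acs9B; in the higher order set the Col arrays lie above all mutant arrays, and 1 acs4A array lies far below its 2 replicates.

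The single arrays of the pairs are given as a description, since a choice by their means makes a separation likely. In 148 of the 149 members all 6 arrays of acs2B and acs6E lay above all 6 arrays of acs2C and acs9B, which was true of 2369 of all probe sets. The median of the difference that chose the members was 1.33, with 52 members at 1.5 or more and 20 at 2 or more. Col lay between the pairs in 132 members. Against the Col mean, 139 members were above it in acs2B and 142 in acs6E, and 144 were below it in acs2C and 147 in acs9B, with median differences of 0.55, 0.67, -0.68 and -0.79. The members thus stood on both sides of Col, by similar amounts. As a background, the arrays of acs2B all exceeded all Col arrays in 103 members (14.5% of all probe sets), those of acs6E in 113 (17.4%), those of acs2C all lay below Col in 117 (19%) and those of acs9B in 122 (18%).

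Over these members the lines of a pair had similar levels, which the choice of members by pair means favoured. The median of acs6E minus acs2B over the members was 0.13, and 3 members differed by 1 or more. The median of acs9B minus acs2C was -0.06, with 1 member that differed by 1 or more. acs6E was the highest of the 9 groups in 111 members and acs9B the lowest in 95, and both are groups that the rule used.

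AT2G27420 had the largest difference of the members, 4.59. It read 9.68, 9.60 and 9.51 in acs2B and 9.52, 9.76 and 9.84 in acs6E, against 5.08, 4.96 and 5.16 in acs2C and 5.77, 4.76 and 4.64 in acs9B. The Col arrays, at 7.13, 8.73 and 8.28, lay between the pairs and varied among themselves. The other named genes at the top were AT5G42760, AT2G15020, AT3G44450, TBL26, AT1G65870, AT1G60590, AT5G66740, AT1G23205 and AT5G20790. TBL26 belongs to the TRICHOME BIREFRINGENCE-LIKE family, whose members add acetyl groups to cell wall polymers. Its arrays read 8.82, 8.51 and 8.79 in acs2B, 8.38, 8.46 and 8.75 in acs6E, 6.18, 6.03 and 5.87 in acs2C and 6.68, 6.07 and 5.996 in acs9B. As for AT2G27420, the pairs did not overlap, and the Col arrays at 6.60, 8.03 and 7.47 reached from the level of the low pair to just under the high pair.

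Just inside the threshold lay AT1G54050 at 1.0038, AT5G20220 at 1.0053 and AT5G01260 at 1.0065, and just outside it lay 253949_at at 0.9992, 257880_at at 0.9969 and AT5G62140 at 0.9959. A few members owed their place to 1 line. The unnamed 249227_at read 5.49, 5.61 and 5.53 in acs9B and between 7.84 and 8.83 on every other array of the single set. AT4G19430 read 6.20, 6.54 and 6.32 in acs6E and at most 5.17 elsewhere in the set. These 2 were singled out after their values were seen.

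**Figure D2:**
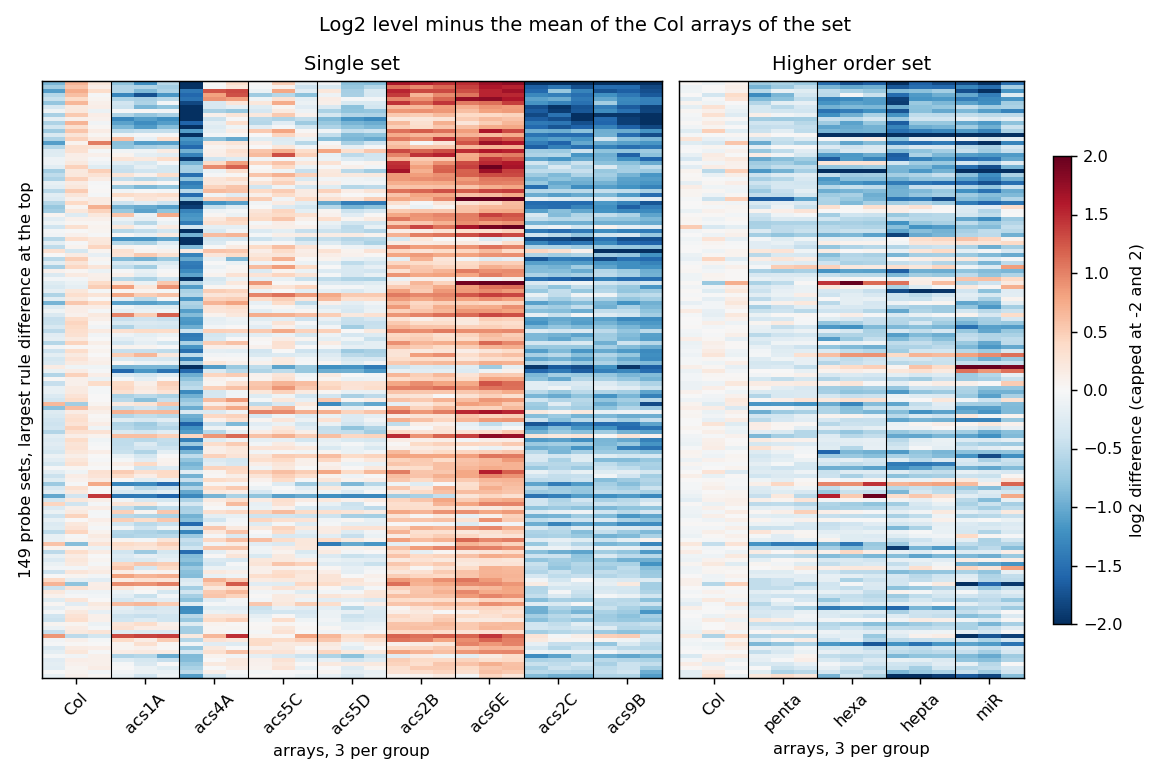
Each row is 1 of the 149 members, ordered by the difference that chose them, and each column is 1 array; colour gives the log2 level minus the mean of the Col arrays of the set, capped at -2 and 2. The acs2B and acs6E columns are red and the acs2C and acs9B columns blue by choice of the members. The first acs4A array is blue throughout, and most members are below Col in penta, hexa, hepta and miR.

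In the higher order set, which had no part in choosing the members, most members fell. Against Col of that set, limma called 91 members lower and 4 higher in hexa, 103 lower and 2 higher in hepta, and 106 lower and 7 higher in miR, at a Benjamini-Hochberg adjusted p below 0.05. Of all probe sets, 3.61% were called lower and 4.44% higher in hexa, 5.08% and 6.96% in hepta, and 8.61% and 12.3% in miR. In penta 39 members were called lower and 0 higher, against 1.13% and 2.08% of all probe sets. At an unadjusted p under 0.05 penta had 86 members lower and again 0 higher, against 7.17% and 8.07% of all probe sets. The count in penta depended on single arrays, and leaving them out in turn gave 17 to 34 members. The lowest of these, 17, came without Col replicate 3, and 21, 19 and 24 remained without penta replicate 1, penta replicate 2 and Col replicate 1. The 4 comparisons share the same Col arrays.

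The size of the differences was modest for most members. Their median was -0.27 in penta, -0.44 in hexa, -0.51 in hepta and -0.58 in miR, while the median of all probe sets lay between -0.003 and 0.02. All arrays of the line lay below all Col arrays in 85 members for penta (10.2% of all probe sets), 112 for hexa (10.3%), 107 for hepta (12.8%) and 107 for miR (13.9%). Col was the highest of the 5 groups in 110 of the 149 members. The lowest was miR in 60, hepta in 54, hexa in 18 and penta in 12. For these ranks no share over all probe sets is given. Of the 45 probe sets for control transcripts, 0 were called by limma in penta, hexa and hepta, with 1, 0 and 0 at an unadjusted p under 0.05, and 5 were called in miR.

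**Figure D3:**
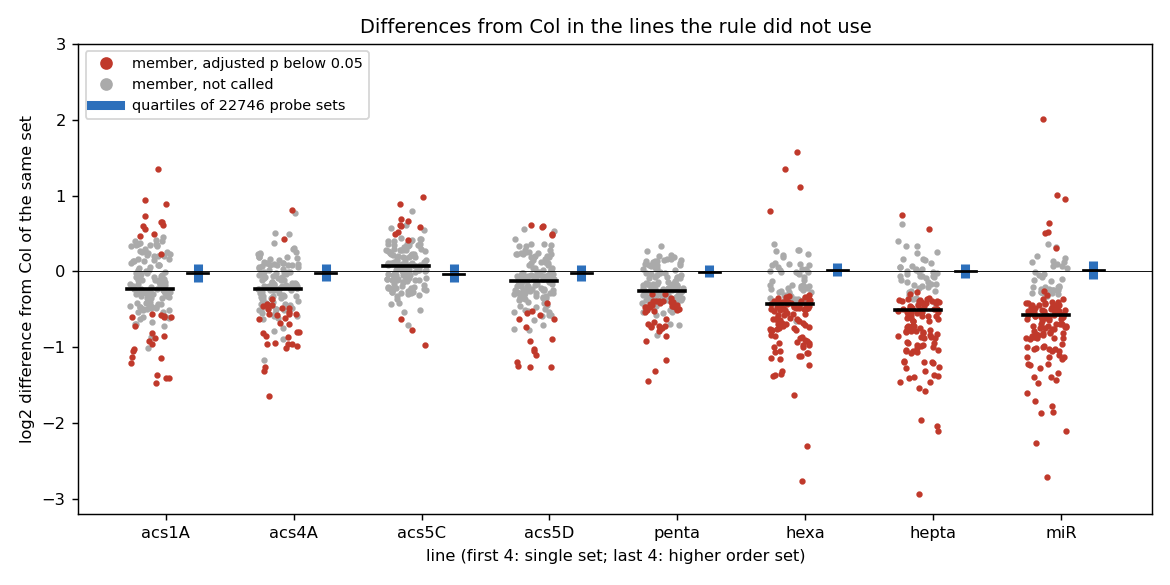
Log2 difference from Col of the same set for each member in the 8 lines that the choice of members did not use; red points passed an adjusted p below 0.05 and grey points did not, black bars are medians, and blue bars beside each line span the quartiles of all 22746 probe sets. Members spread around or somewhat below 0 in the single lines and lie mostly below 0 in penta, hexa, hepta and miR. A few points lie above 1.

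AT2G27420 itself fell stepwise across the set. Its arrays read 9.13, 9.01 and 9.16 in Col, 8.39, 8.46 and 8.37 in penta, 7.60, 7.36 and 7.46 in hexa, 6.59, 7.49 and 7.32 in hepta and 7.31, 6.77 and 7.60 in miR. No array of any mutant reached Col, and hexa, hepta and miR overlapped one another. The difference from Col was -0.69 ± 0.19 (SE) in penta, with an adjusted p of 0.056, -1.63 ± 0.19 in hexa (2.22e-05), -1.97 ± 0.19 in hepta (1.52e-06) and -1.88 ± 0.19 in miR (1.84e-06), all by limma. hexa also differed from penta by -0.93 ± 0.19 (0.00516).

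TBL26 and ATSPS4F fell in hexa, hepta and miR. TBL26 read 8.00, 7.85 and 7.93 in Col and 7.33, 7.74 and 7.76 in penta, whose difference of -0.32 ± 0.21 did not pass the test (adjusted p = 0.534). It then read 6.75, 6.86 and 6.81 in hexa, 6.03, 7.18 and 7.02 in hepta and 6.86, 6.71 and 7.23 in miR, all below every Col and penta array. These were differences of -1.12 ± 0.21 (0.00204), -1.18 ± 0.21 (0.000887) and -0.997 ± 0.21 (0.00228). ATSPS4F encodes a sucrose phosphate synthase, an enzyme of sucrose formation. It read 9.38, 9.54 and 9.57 in Col, 8.96, 9.20 and 9.17 in penta, 8.64, 8.91 and 8.85 in hexa, 8.59, 8.81 and 8.83 in hepta and 8.76, 8.61 and 8.49 in miR. Every mutant array lay below every Col array. The differences were -0.39 ± 0.10 in penta (0.0389), -0.70 in hexa (0.000155), -0.75 in hepta (4.32e-05) and -0.88 in miR (5.88e-06). The call in penta was lost without any 1 of its 6 arrays, with adjusted p from 0.0589 to 0.182.

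Both members that the reference lists in the NRT1/PTR family, transporters of nitrate, peptides and hormones, fell in the same 3 lines. AT3G21670, listed as NPF6.4, read 10.44, 10.51 and 10.46 in Col, 10.21, 10.39 and 10.32 in penta, 10.09, 9.97 and 10.06 in hexa, 10.10, 10.13 and 10.04 in hepta and 9.73, 9.49 and 9.73 in miR. miR was the lowest group without overlap, -0.82 ± 0.08 from Col (adjusted p = 6.62e-07) and -0.44 ± 0.08 from hepta (0.00106), while hexa at -0.43 (0.0013) and hepta at -0.38 (0.00249) were alike and penta at -0.17 (0.303) did not pass. AT1G68570, listed as NPF3.1, read 9.08, 9.18 and 8.93 in Col and at most 8.48 on all arrays of hexa, hepta and miR. Its differences there were -0.66 ± 0.10 (0.000288), -0.66 ± 0.10 (0.000191) and -0.84 ± 0.10 (1.01e-05), and -0.37 ± 0.10 in penta (0.0514).

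CHIL, a chalcone isomerase like protein of flavonoid synthesis, had its lowest levels in hexa and hepta. It read 8.31, 8.18 and 8.08 in Col, 7.80, 7.73 and 7.52 in penta, 6.77, 6.90 and 6.96 in hexa, 6.63, 7.27 and 7.07 in hepta and 7.59, 7.66 and 7.49 in miR. All arrays of hexa and hepta lay below all others, and they differed from Col by -1.31 ± 0.12 (adjusted p = 1.7e-06) and -1.20 ± 0.12 (2.99e-06). miR differed from Col by -0.61 ± 0.12 (0.00164) and stood 0.59 ± 0.12 above hepta (0.00478). Penta differed by -0.51 ± 0.12 (0.0308), a call lost without any 1 of the 6 arrays, with adjusted p from 0.0529 to 0.162.

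AFR, TRY and LPR1 were called lower in hexa, hepta and miR as well, and several of these calls depended on single arrays. AFR, an F-box protein of phytochrome A signalling, read 8.62, 8.84 and 8.57 in Col and 8.12, 7.97 and 8.35 in miR, which did not overlap and differed by -0.53 ± 0.11 (adjusted p = 0.00261). In hexa it differed by -0.45 (0.0174), lost without hexa replicate 2 (0.0644), hexa replicate 3 (0.0843) or Col replicate 2 (0.0879), and in hepta by -0.48 (0.00832), lost without hepta replicate 1 (0.0579). TRY, an inhibitor of trichome formation in epidermal patterning, read 6.62, 6.86 and 6.76 in Col, 6.29, 6.26 and 6.24 in hexa and 6.14, 6.20 and 6.29 in miR, below every Col array. These were differences of -0.49 ± 0.10 (0.00641) and -0.54 ± 0.10 (0.00127). In hepta the call of -0.42 (0.0124) was lost without hepta replicate 1, hepta replicate 2 or Col replicate 2, with adjusted p from 0.0575 to 0.0817. LPR1, which acts in the root response to low phosphate, differed by -0.41 in hexa (0.0349), -0.41 in hepta (0.0259) and -0.42 in miR (0.0135). Each of these LPR1 calls was lost without Col replicate 1 (0.139, 0.116 and 0.0632). They were lost as well without Col replicate 3 in hexa and hepta, and without replicates 2 and 3 of hexa, replicates 1 and 2 of hepta or replicates 2 and 3 of miR, with adjusted p up to 0.173.

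IAGLU, Hop3 and AT5G48570 were not called against Col in penta, hexa or hepta. IAGLU, which attaches glucose to the auxin indole-3-acetic acid, read 7.52, 7.82 and 7.86 in Col and stayed between 7.56 and 8.00 on all arrays of penta, hexa and hepta. In miR it read 7.19, 6.86 and 7.58, which overlapped Col and differed by -0.52 ± 0.13 (adjusted p = 0.00895), lost without miR replicate 2 (0.0549). Hop3, a co-chaperone of Hsp70 and Hsp90, lay between 5.73 and 6.01 on all 15 arrays, with differences from -0.07 to 0.03 that did not pass the test. AT5G48570, listed as the FK506-binding peptidyl-prolyl isomerase FKBP65 or ROF2, had differences of -0.23, 0.09, -0.31 and 0.33 in penta, hexa, hepta and miR, and none passed.

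Among members with no role given here, the unnamed 249774_at had the largest difference in hexa, hepta and miR. It read 9.75, 9.78 and 9.82 in Col and 9.89, 9.79 and 9.81 in penta, which overlapped. In hexa it read 6.97, 6.94 and 7.13, in hepta 6.62, 7.08 and 6.84 and in miR 7.12, 7.23 and 6.85. The arrays thus fell into 2 levels, Col and penta above, and hexa, hepta and miR below. The differences from Col were 0.05 ± 0.11 in penta (adjusted p = 0.91), -2.77 ± 0.11 in hexa (6.35e-12), -2.94 ± 0.11 in hepta (4.04e-12) and -2.71 ± 0.11 in miR (7.33e-12). hexa differed from penta by -2.82 ± 0.11 (4.35e-12). In the single set the same probe set read 9.85, 9.44 and 9.52 in acs5D, 8.07, 10.27 and 10.35 in acs4A and 10.02 or more in Col, acs1A and acs5C, and acs5D against Col, at -0.71 ± 0.34, did not pass the test (0.155).

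Other members were low in particular lines. AT3G15310 read 5.73, 5.13 and 6.13 in Col, 3.49, 3.42 and 3.17 in hexa and 3.47, 3.37 and 3.35 in miR, and its levels in penta, 4.51, 4.71 and 5.00, and in hepta, 4.73, 4.51 and 4.72, lay between. The differences were -0.92 (adjusted p = 0.00743) in penta, -2.30 (1.49e-07) in hexa, -1.01 (0.000826) in hepta and -2.26 (7.28e-08) in miR, and hepta stood 1.29 ± 0.18 above hexa (0.00021). AT1G66540 was lowest in hepta, at 4.31, 3.70 and 4.15 against 6.13, 5.86 and 6.32 in Col. It differed there by -2.05 ± 0.16 (1.04e-07), and by -1.68 ± 0.16 from hexa (3.83e-06). AT1G54050 read 6.21, 6.77 and 6.26 in Col, 5.48, 6.02 and 5.78 in hexa, 4.09, 4.29 and 4.52 in hepta and 4.75, 4.59 and 5.57 in miR. Its differences were -0.66 in hexa (0.0572), -2.11 in hepta (1.43e-06) and -1.44 in miR (6.32e-05). AT1G52820 was low in miR, at 4.87, 5.91 and 5.76 against 7.83, 7.00 and 8.05 in Col and 7.36, 7.71 and 7.77 in hepta. It differed by -2.11 ± 0.25 from Col (1.01e-05) and by -2.10 ± 0.25 from hepta (2.47e-05).

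The few members that rose included some of the largest differences. The unnamed 248676_at read 8.24, 8.27 and 8.06 in miR against 6.29, 6.23 and 6.02 in Col, and no other array of the set exceeded 6.76. The difference was 2.01 ± 0.12 (adjusted p = 1.13e-09) against Col and 1.68 ± 0.12 (2.86e-08) against hepta. AT4G19430 read 6.26, 6.97 and 5.96 in hexa against 4.84, 4.07 and 5.54 in Col and 4.18, 4.30 and 4.84 in penta. Its hexa arrays lay above all Col arrays, which spread widely, by 1.58 ± 0.32 (0.00428). The unnamed 262369_at also rose in hexa, at 6.44, 5.42 and 6.85 against 4.76, 4.94 and 4.96 in Col, a difference of 1.35 ± 0.30 (0.00764). In the single set the same probe set was called lower than Col in acs1A, acs4A, acs5C and acs5D. Its differences were -1.47 in acs1A (adjusted p = 0.00195), -0.97 in acs5C (0.0361) and -1.26 in acs5D (0.00776). The acs4A call was lost without acs4A replicate 1 (0.13).

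**Figure D4:**
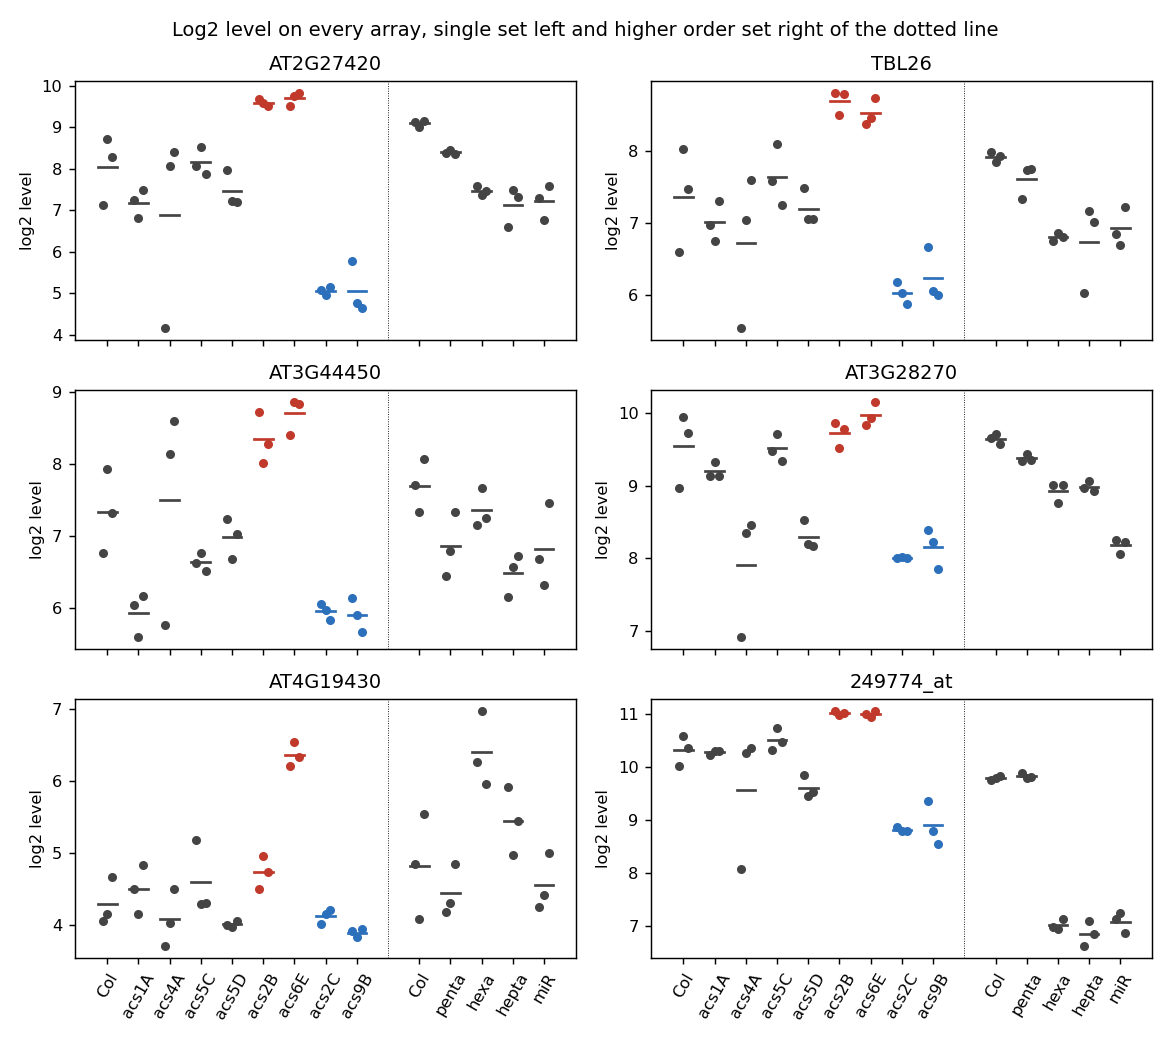
Log2 level of AT2G27420, TBL26, AT3G44450, AT3G28270, AT4G19430 and 249774_at on every array, 3 points per group, with the single set and the higher order set apart. AT2G27420 and TBL26 are high in acs2B and acs6E and step down from Col to hexa, 249774_at holds 2 separate levels in the higher order set, and AT4G19430 is high in acs6E and hexa.

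Direct comparisons between the higher order lines do not rest on the Col arrays. hexa against penta called 40 members lower and 10 higher, where 3.91% and 3.4% of all probe sets were called. Without hexa replicate 1 the count fell to 32 in all. hepta against hexa called 13 lower and 3 higher, where 1.53% and 2.42% of all were called, and 10 in all without hexa replicate 1. miR against hepta called 19 lower and 20 higher, where 4.29% and 5.31% of all were called. Its split was even, and the side with more members turned when miR replicate 1 (15 higher, 18 lower), miR replicate 3 (13 and 28) or hepta replicate 1 (11 and 18) was left out.

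In the single lines that the choice of members did not use, limma called 33 members against Col in acs1A (12 higher and 21 lower), 32 in acs4A (2 and 30), 13 in acs5C (10 and 3) and 21 in acs5D (5 and 16). Of all probe sets, 21.4%, 20.3%, 19.2% and 17.6% were called in these comparisons, against 22.1%, 21.5%, 8.72% and 14.1% of the members, so the members' shares lay near or below the background. By direction, the background was 8.83% higher and 12.5% lower in acs1A, 9.57% and 10.7% in acs4A, 8.66% and 10.5% in acs5C and 7.35% and 10.3% in acs5D. The 30 members lower in acs4A are 20.1% of the members, and this share rested on replicate 1 of acs4A, as given below. Median differences of the members were -0.23, -0.23, 0.07 and -0.13. The 4 comparisons share the Col arrays, of which replicate 1 lay below replicates 2 and 3 in 125 members, against 33.8% of all probe sets, by a median of -0.39. Without that Col array, 50 members were called in acs1A (9 higher and 41 lower) and 51 in acs4A (5 and 46), and without Col replicate 2 they were 20 and 11. Without Col replicate 3, 15 were called in acs4A and 11 in acs5D, and without acs4A replicate 3, 51 in acs4A. Leaving out acs5C replicates 1 and 2 in turn gave 7 and 6 calls in acs5C, and leaving out acs5D replicates 1, 2 and 3 in turn gave 12, 11 and 10 in acs5D. These counts with an array left out carry no share of all probe sets, so they show only how far the member calls moved.

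AT3G28270 had the smallest adjusted p of the members in acs4A. It read 8.97, 9.95 and 9.72 in Col, 9.14, 9.32 and 9.14 in acs1A, 6.91, 8.35 and 8.46 in acs4A, 9.49, 9.72 and 9.34 in acs5C and 8.52, 8.19 and 8.17 in acs5D. acs4A and acs5D lay below every Col array, and acs1A and acs5C lay among them. The differences were -1.64 ± 0.27 in acs4A (adjusted p = 0.00011) and -1.26 ± 0.27 in acs5D (0.00186). Without acs4A replicate 1 the first was -1.14 ± 0.19 (0.000201). In the higher order set AT3G28270 also fell, with differences from Col of -0.72 ± 0.08 in hexa (1.43e-05), -0.66 ± 0.08 in hepta (2.26e-05) and -1.47 ± 0.08 in miR (7.48e-10), and -0.27 ± 0.08 in penta (0.092) did not pass.

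Of the members higher than Col in acs1A, acs5C and acs5D, the unnamed 261569_at had the smallest adjusted p in each line. It read 9.17, 9.58 and 9.55 in Col, 10.12, 10.07 and 10.08 in acs1A, 10.43, 10.38 and 10.16 in acs5C and 10.16, 9.88 and 10.01 in acs5D, while acs4A at 9.15, 9.15 and 9.33 overlapped Col. The arrays of acs1A, acs5C and acs5D all exceeded those of Col, with differences of 0.66 ± 0.10 (adjusted p = 3.21e-05), 0.89 ± 0.10 (7.5e-07) and 0.59 ± 0.10 (0.000146). Against Col of the higher order set it fell in all 4 lines, with differences of -0.79 ± 0.11 in penta (0.000807), -0.78 ± 0.11 in hexa (0.000217), -1.04 ± 0.11 in hepta (5.97e-06) and -1.02 ± 0.11 in miR (5.61e-06).

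With all arrays in the fit, 3 members were called lower than Col in all 4 of acs1A, acs4A, acs5C and acs5D, and 1 was called higher. These are 2.01% and 0.671% of the members, below the 3.75% and 3.53% of all probe sets with these calls. Other members, such as AT1G52820 and AT3G44450, were called in acs1A alone, for which no share of all probe sets is given. Of the 3 members lower in all 4 lines, 248676_at is described next. The unnamed 248676_at read 7.12, 6.87 and 6.87 in Col and between 4.89 and 6.45 on all 12 arrays of the 4 lines, with differences from -1.31 in acs4A (adjusted p = 0.000135) to -0.78 in acs5C (0.0133), the latter lost without acs5C replicate 2 (0.0787) or Col replicate 1 (0.051). In miR, as given above, the same probe set was higher than Col. AT1G52820 read 8.08, 8.14 and 8.18 in acs1A against 7.68, 6.27 and 6.42 in Col, above all of them by 1.34 ± 0.29 (0.00178). The lines acs2B and acs6E, at 7.89 to 8.23, read much like acs1A for this member. AT3G44450 read 6.04, 5.60 and 6.17 in acs1A against 6.76, 7.93 and 7.32 in Col, a difference of -1.40 ± 0.42 (0.0187) that was lost without acs1A replicate 2 (0.0848) or Col replicate 2 (0.0991). Without acs4A replicate 1, limma also called AT1G52820 and AT3G44450 in acs4A, both higher than Col, by 1.06 (adjusted p = 0.0145) and 1.04 (0.00463).

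Setting the lines with the low bioC level against each other removes the Col arrays from the comparison. acs5C against the mean of acs1A and acs4A called 11 members higher and 0 lower, with a median difference of 0.29, where 1.63% and 0.545% of all probe sets were called. At an unadjusted p under 0.05 these were 50 and 3 members, against 7.49% and 7.27% of all. Without acs4A replicate 1 the calls were 11 higher and 4 lower, where 1.75% and 0.796% of all were called. The median was then 0.13, and 9 of the 11 calls were kept. acs5C against acs5D, whose bioC levels differ and where 5 of the 45 probe sets for control transcripts were called, called 5 higher and 0 lower, where 1.59% and 0.703% of all were called. At an unadjusted p under 0.05 these were 25 and 0, against 7.47% and 6.55% of all. acs1A against the mean of the other two called 9 higher and 5 lower, where 1.89% and 2.09% of all were called. acs4A against the mean of acs1A and acs5C called 2 higher and 23 lower, where 2.56% and 3.07% of all were called. All of these counts depended on single arrays. Leaving out 1 array at a time gave 3 to 26 calls for acs5C, the highest without acs4A replicate 3 and fewer than 8 without acs5C replicate 1 (4), acs5C replicate 2 (3), acs1A replicate 2 (6) or acs1A replicate 3 (7). It gave 1 to 3 calls for acs5C against acs5D without any 1 of their arrays. For acs1A it gave 5, 7, 6 and 9 calls without acs1A replicates 1, 2 and 3 and acs5C replicate 1.

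AT3G24460 was among the members higher in acs5C. It read 7.91, 8.56 and 7.75 in acs5C, above all arrays of Col (7.04, 7.41 and 7.39), acs1A (7.34, 7.10 and 7.06), acs4A (5.94, 7.42 and 7.51) and acs5D (7.13, 6.75 and 6.88). The difference was 1.15 ± 0.29 from acs5D (adjusted p = 0.0311) and 1.01 ± 0.25 from the mean of acs1A and acs4A (0.0296), or 0.76 ± 0.18 (0.0226) without acs4A replicate 1. AT3G28270 differed between acs5C and acs5D by 1.22 ± 0.27 (0.0113), a call lost without acs5C replicate 2, acs5D replicate 2 or acs5D replicate 3, with adjusted p from 0.0578 to 0.0793. In the higher order set AT3G24460 fell, with differences from Col of -1.08 ± 0.18 in hexa (0.000713), -1.06 ± 0.18 in hepta (0.00061) and -1.13 ± 0.18 in miR (0.000201).

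The values of acs4A depended on replicate 1. That array was below the mean of replicates 2 and 3 by a median of -1.08 over the members, within a range of -4.07 to 0.18, while the median over all probe sets was -0.007 and replicates 2 and 3 differed by a median of -0.09. It was below both others in 147 members and in 40.2% of all probe sets. In AT2G27420, which the choice of members also separated most, the 3 arrays read 4.17, 8.08 and 8.40. The 3′ minus 5′ difference of the GAPDH control probe sets, a measure of RNA integrity, was 0.36 on replicate 1 and 0.10 and 0.09 on replicates 2 and 3, and it was 0.63, 0.20 and 0.30 on Col replicates 1, 2 and 3. The same measure was 0.20 to 0.35 on the arrays of acs2C and acs9B and 0.05 to 0.22 on those of acs2B and acs6E, which overlapped. The part of RNA integrity in the acs4A values and in the difference that chose the members was not tested.

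Without acs4A replicate 1 the direction of the acs4A comparison turned. Against Col, 43 members were called, 36 higher and 7 lower, where 9.23% and 10% of all probe sets were called. Of the 32 calls made with it, 9 were kept. Higher without it were AT2G15020 by 1.29 (adjusted p = 0.0115), AT3G44450 by 1.04 (0.00463) and LPR1 by 0.61 (0.0033). The 7 that were lower without it were AT3G28270 at -1.14, 248676_at at -0.93, 252515_at at -0.93, 262113_at at -0.71, AT4G28290 at -0.67, 252269_at at -0.42 and AT2G41250 at -0.31. Against the mean of acs1A and acs5C, 40 were then higher and 17 lower, where 4.52% and 4.94% of all were called. For acs1A against the mean of acs4A and acs5C, 11 were higher and 68 lower, where 4.13% and 5.01% of all were called. Without acs4A replicate 3, acs4A against the mean of acs1A and acs5C called 42.

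**Figure D5:**
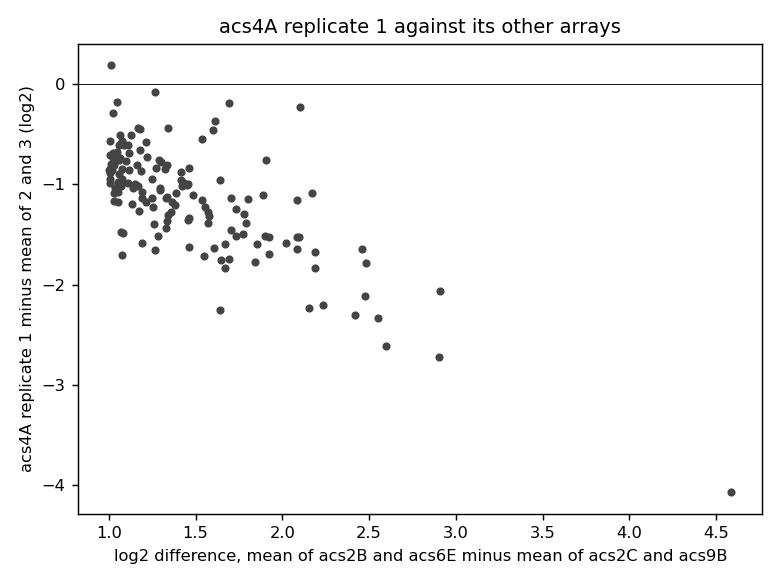
Each point is 1 of the 149 members: the horizontal axis is the log2 difference that chose the members and the vertical axis is acs4A replicate 1 minus the mean of acs4A replicates 2 and 3. Nearly all points lie below 0, with AT2G27420 at the far right and lowest, at -4.07.

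Genes of the pathways around ACC synthase and of light, clock, sugar, flavonoids and chlorophyll were followed in lists. The lists were matched by gene name, and no named member was in them. The 80 unnamed members and the 2 that matched several genes could not be matched, so whether they measure list genes is not known here. Of 114 list entries 12 had a named probe set. No ACC synthase gene and no gene of the light signalling list was among these, so the mutated genes were not analysed here. Of 21 ethylene genes 4 had a named probe set, and limma called 1 higher than Col in hexa, 1 in hepta and 2 in miR. Of all probe sets, 4.44%, 6.96% and 12.3% were called higher in these lines. EIN3, the transcription factor that mediates the ethylene response, differed from Col by 0.28 ± 0.08 in hexa (adjusted p = 0.0282), 0.43 ± 0.08 in hepta (0.000889) and 0.28 ± 0.08 in miR (0.0141). RTE1, a regulator of the ethylene receptor, differed by 0.37 ± 0.08 in miR (0.00414).

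In the single set, RTE1 and ACO3, an ACC oxidase that makes ethylene from ACC, were lower than Col in acs5C, with differences of -0.21 ± 0.07 (adjusted p = 0.0435) and -0.43 ± 0.10 (0.00525). DFR of the flavonoid list, which acts in anthocyanin synthesis, was lower in penta, hexa and hepta, with differences of -0.68 ± 0.17 (0.0337), -1.29 ± 0.17 (7.25e-05) and -1.33 ± 0.17 (3.15e-05), and in miR its difference of -0.40 did not pass the test (0.108). DFR was lower in acs5D as well, with a difference of -0.85 ± 0.15 (0.000371). CCL of the sugar starvation and darkness list was higher than Col in penta, hexa, hepta and miR, by 1.12, 0.72, 1.76 and 1.33, and lower in acs5D, with a difference of -0.64 ± 0.19 (0.0189). GI, a clock gene, was higher in hexa by 0.35 (0.0309), in hepta by 0.38 (0.0145) and in acs4A by 0.61 (8.1e-05), or by 0.76 without acs4A replicate 1 (2.2e-06). Of the chlorophyll list, PORB, which acts in chlorophyll synthesis, differed from Col by 0.70 ± 0.15 in hexa (adjusted p = 0.00705), 1.11 ± 0.15 in hepta (7.21e-05) and 0.69 ± 0.15 in miR (0.00341). In the single set PORB was lower in some lines, with differences of -0.76 ± 0.13 in acs1A (0.000181), -0.78 ± 0.13 in acs5C (0.000159) and -0.44 ± 0.13 in acs5D (0.0208). Its difference of -0.09 in acs4A did not pass the test (0.691). CHLM, another enzyme of that synthesis, differed from Col by 0.20 in acs1A (0.0277), 0.21 in acs4A (0.0226) and 0.25 in acs5D (0.00898), and the acs4A call was lost without acs4A replicate 1 (0.113).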

How the data were processed

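Values are the authors' deposited log2 expression values of one-colour Affymetrix arrays, 1 per probe set and array, made with RMA per the submitters' processing notes, whose version is not given in the sources used here. RMA corrects background, normalizes by quantiles and summarises probes, which compresses the differences of dim probe sets. Medians of the 27 arrays of the single set were 6.77 to 6.83 and those of the 15 other arrays 6.24 to 6.31, so every test stayed within a set. The tests left out 64 of 22810 probe sets as controls. Genes were named through the platform annotation and a RefSeq table (assembly TAIR10.1). A group held 3 arrays, whose number limits the precision. The titles call them biological replicates, and p-values measure only the spread between these samples.

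limma 3.58.1 in R 4.3.3 was fitted with 1 coefficient per group on all arrays of a set, with no filter and no block. Two-sided p-values were adjusted by the Benjamini-Hochberg method over all 22746 probe sets within each of 15 comparisons, and a probe set was called below 0.05. Calls at an unadjusted p under 0.05 are named as such. Differences are on the log2 scale with their SE. The fit was tested on simulated data.

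The members and the gene lists were chosen with earlier results of these data known. Members shown were drawn first from the 10 named members with the largest difference of the rule. Further sources were those with the smallest adjusted p in 2 or more comparisons with Col and the 3 largest called differences of each comparison. The 3 probe sets on each side of the threshold and members of known role were added. Array values are printed for only some of these, so the members shown are a selection. Replicate numbers were checked for pairing. Deviations of same-numbered arrays from their group means had a mean correlation of 0.0097 in the single set and 0.0257 in the higher order set, with some below 0, so the numbers pair nothing. Alternatives were other arrays in the fit, a trend and robust fit, a second quantile normalization, group medians, a replicate block and each array left out. Promoter and protein sequences were not analysed here.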

Additional observations from a re-analysis of the deposited data

Results flagged for a closer look

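Control probe sets lie outside the comparisons of the members, and some of them stood above their level on the Col arrays of the single set. The mean of the thr probe sets exceeded Col by 0.95 in acs1A, 1.09 in acs4A, 0.95 in acs5C and 1.15 in acs5D on the log2 scale. The mean of the bioC probe sets exceeded Col by 0.65 in acs5D, and in acs1A, acs4A and acs5C it was lower than Col, at 7.07 to 7.50 against 8.22 to 8.51. The 4 cre probe sets, designed for another RNA added at hybridisation, were lower than Col on all arrays of these 4 lines, at 12.57 to 12.91 against 13.11 to 13.29.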

How the results depend on the processing

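Counts of calls in this section carry no share of all probe sets, so they show only how far the member calls moved. Leaving out 1 array at a time gave 79 to 85 members in hexa, 96 to 104 in hepta, 105 to 113 in miR and 17 to 34 in penta against Col. It gave 32 to 41 for hexa against penta, 10 to 14 for hepta against hexa and 29 to 41 for miR against hepta. In miR against hepta the side with more members turned without miR replicate 1 (33 calls), miR replicate 3 (41) and hepta replicate 1 (29), with a fit of the groups compared alone (28) and with a trend and robust fit (37).

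Single lines were less stable. Leaving out 1 array gave 20 to 50 calls in acs1A, 11 to 51 in acs4A, 6 to 14 in acs5C and 10 to 26 in acs5D against Col, and 5 to 79 for acs1A, 20 to 57 for acs4A and 3 to 26 for acs5C against the mean of the other 2, and 1 to 3 for acs5C against acs5D. Without acs4A replicate 1, acs4A against Col (43), acs1A against the others (79) and acs4A against the others (57) turned direction. Fitted on the 5 groups that the choice of members did not use, the counts were 21, 10, 7 and 12 against Col in acs1A, acs4A, acs5C and acs5D, 5 for acs1A and 4 for acs5C against the others, and 1 for acs5C against acs5D. Fitted on the groups compared alone, limma called 0 in acs4A against Col (14 at an unadjusted p under 0.05), 4, 13 and 3 for acs1A, acs4A and acs5C against the others and 35 for acs5C against acs5D. The trend and robust fit called 5 for acs5C against the others and 3 for acs5C against acs5D.

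The replicate block gave 97 calls in hexa and 14 in acs5C against Col and moved no count by over 1.5 times. The number of members was 135 to 160 without 1 array, 146 after a second quantile normalization (145 shared) and 153 with group medians (142 shared). RMA gives a value to signals at background, so low levels such as those of AT4G19430 may lie near background.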
